A study of Mus musculus with 16 samples.

Results

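The 10 genes described here encode the chains of the myosin II motor of skeletal muscle, 6 heavy chains (Myh4, Myh1, Myh2, Myh7, Myh8 and Myh3) and 4 light chains (Myl1, Myl3, Mylpf and Myl2). They were chosen by name, and each had 1 row in both tables, making them 10 of the 21011 genes measured in tibialis anterior (TA) and 10 of the 38933 genes measured in cortical bone. RNA was sequenced from female C57BL/6 mice, 18 months old at the start, that received vehicle (VEH) or BAY2416964 (BAY), an oral antagonist of the aryl hydrocarbon receptor (AhR), at 30 mg/kg by gavage on 5 days per week for 8 weeks. There were 4 VEH-treated and 4 BAY-treated libraries of TA and as many of cortical bone, 1 library per mouse, and every mouse of both groups was aged and gavaged. BAY reached the whole animal, so a change in a tissue was not tied to AhR in that tissue. The bone samples were shafts left after marrow stromal cells had been taken and the shaft digested with collagenase, whereas TA was taken whole. Whether the bone and TA libraries of the same replicate number came from the same mouse is not given in the sources used here.

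A myosin molecule joins a pair of heavy chains, which hold the motor head and the rod that packs into the thick filament, with an essential and a regulatory light chain on each neck. The heavy chain sets the fibre type. Myh4 marks type IIB fibres, the fastest and most glycolytic fibres of the mouse, Myh1 marks type IIX fibres, Myh2 marks the fast oxidative type IIA fibres and Myh7 marks slow type I fibres. Myh3 and Myh8 are the embryonic and neonatal heavy chains, which return for a time in regenerating fibres. Myl1 and Mylpf are the essential and regulatory light chains of fast fibres, and Myl3 and Myl2 are those of slow fibres and of the heart ventricle. The mouse TA is known as a fast muscle, with many IIB and IIX fibres.

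All values are in CPM, the reads on a gene scaled to a common library total. Reads on genes came to between 6131950 and 9262370 per library in TA and between 930303 and 6951893 in bone, so that 3 reads were worth 0.324 to 0.489 CPM in TA and 0.432 to 3.22 CPM in bone. That level was taken as the floor, and it covers counting error only. A gene was called where limma gave an unadjusted P value under 0.05 with a fold change of at least 2. These are the limits the study gives, but its methods used voom, whereas the fit here is on the deposited log2 values. Voom on recovered reads called 700 genes in TA against 510 here and 1433 in bone against 249. P values adjusted by Benjamini-Hochberg over all genes of the tissue are given beside each.

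The gene models place Myh3, Myh2, Myh1, Myh4 and Myh8 side by side on the plus strand of chromosome 11 (mm39), from chr11:66969126-66993117 for Myh3 over chr11:67061853-67088343 for Myh2, chr11:67090878-67115401 for Myh1 and chr11:67128855-67151272 for Myh4 to chr11:67167950-67199460 for Myh8. Myh7 lies apart at chr14:55208141-55232083 on the minus strand. The light chain genes are on other chromosomes, Myl1 at chr1:66963454-66984563 (minus), Myl3 at chr9:110570929-110598866 (plus), Mylpf at chr7:126808062-126813470 (plus) and Myl2 at chr5:122239014-122251535 (plus). Because fibre shares rest on telling near-copies apart, the coding sequences of the GENCODE M39 canonical transcripts were compared. Myh4 was 90.2% identical to Myh1, 88.2% to Myh2 and 77.8% to Myh7 over the aligned bases. The longest run without a difference was 161 bases between Myh4 and Myh1 and 268 bases between Myh1 and Myh2. Of all 150-base windows of these transcripts, 98% in Myh1, 98.2% in Myh2, 99.5% in Myh4 and 100% in Myh7 occurred in no other of the 6 heavy chain transcripts. The 60-base coding stretch in which the adult fast chains differed most, printed 5′ to 3′ to show what separates them, starts at coding base 3841 of Myh4, 3850 of Myh1 and Myh2 and 3829 of Myh7. Capitals mark bases that differ from Myh4, of which there were 19 in Myh1, 18 in Myh2 and 19 in Myh7.

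Myh4: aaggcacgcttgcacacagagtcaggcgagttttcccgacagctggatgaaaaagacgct
Myh1: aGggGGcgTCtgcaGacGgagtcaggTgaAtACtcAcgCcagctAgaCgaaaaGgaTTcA
Myh2: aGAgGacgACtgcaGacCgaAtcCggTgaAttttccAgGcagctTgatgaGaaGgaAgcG
Myh7: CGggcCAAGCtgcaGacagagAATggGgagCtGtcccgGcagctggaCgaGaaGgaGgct

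Myh4 was the most abundant member in all 8 TA libraries, with 60168, 84146, 67266 and 74989 CPM in VEH replicates 1 to 4 and 80802, 75847, 65910 and 118580 CPM in BAY replicates 1 to 4. BAY replicate 4 stood above all others, and the remaining BAY values lay inside the VEH range. The mean was 71642 ± 10301 CPM in VEH and 85284 ± 23044 CPM in BAY (SD, n = 4), a log2 difference of 0.23 with a 95% interval from -2.21 to 2.67 (limma P = 0.844, adjusted P = 0.982; exact permutation P = 0.400). That interval is wide because the fitted trend gave the few genes at this level a large variance. Without the trend the standard error fell from 1.13 to 0.22 and the limma P value was 0.338. With 1 mouse left out the log2 difference ran from 0.056 to 0.339, and it was lowest without BAY replicate 4.

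Myh1, the IIX chain, came next at 14173, 12374, 14708 and 18858 CPM in VEH and 13900, 19789, 16950 and 18140 CPM in BAY. The groups overlapped, with the lowest mouse in VEH and the highest in BAY. The lncRNA Myhas shares 13320 bases with the Myh1 gene model on the other strand and was at 174 to 283 CPM in TA and 1.77 to 116 CPM in bone. Its part in the Myh1 values and shares was not tested. The log2 difference of Myh1 was 0.20 ± 0.50 (SE; limma P = 0.695, adjusted P = 0.919; exact permutation P = 0.314).

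Myh2, the IIA chain, was held apart by a single mouse. It stood at 1042, 808, 5241 and 1124 CPM in VEH replicates 1 to 4 and at 1325, 1233, 1983 and 1428 CPM in BAY replicates 1 to 4. VEH replicate 3 was far above the other 7 mice, and the other 3 VEH values were below all 4 BAY values. With all mice the log2 difference was -0.03 ± 0.45 (SE; limma P = 0.957, adjusted P = 0.998; exact permutation P = 1). With VEH replicate 3 left out it turned to 0.58 ± 0.21 (SE), with an unadjusted limma P value of 0.0164. The means were then 991 ± 164 CPM in VEH (SD, n = 3) and 1492 ± 337 CPM in BAY (SD, n = 4). That value is under the 2-fold limit of a call. The data column of VEH replicate 3 carries a word for replacement that the study's text does not explain, and the part of this in the value was not tested.

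VEH replicate 3 stood apart in some lists of other tissues' markers too. The 7 adipocyte markers summed to 328 CPM in that library and to between 38.6 and 56.3 CPM in the other 7, and the 6 tendon markers to 131 CPM against 26.1 to 63.4 CPM. Summed CPM of the 5 Schwann cell markers was 66.4 there against 21.4 to 41.2, and that of the 5 measured osteoblast and osteocyte markers, mostly the type 1 collagen genes, was 159 against 32.0 to 54.0. In other lists VEH replicate 3 lay inside the range of the other 7 libraries. Blood markers summed to 110 CPM there against 63.8 to 173 CPM, and endothelial markers to 201 CPM against 174 to 227 CPM. Smooth muscle markers summed to 153 CPM there against 108 to 181 CPM. The part of these lists in the Myh2 value was not tested.

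Myh7, the slow chain, had the largest ratio of highest to lowest mouse of any member. It stood at 7.05, 178, 227 and 28.2 CPM in VEH replicates 1 to 4 and at 103, 38.7, 88.3 and 121 CPM in BAY replicates 1 to 4, a 32.3-fold range over the 8 mice. All 4 BAY values lay inside the VEH range. The log2 difference was 0.60 ± 0.83 (SE; limma P = 0.481, adjusted P = 0.833; exact permutation P = 0.714), and it turned to -0.37 without VEH replicate 1, the lowest mouse.

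The neonatal chain Myh8 and the embryonic chain Myh3 were near 10 CPM. Myh8 stood at 8.75, 10.5, 18.9 and 11.2 CPM in VEH and at 13.2, 15.6, 18.8 and 17.5 CPM in BAY, so that VEH replicate 3 was again the highest VEH mouse and the other 3 lay below all 4 BAY mice. The log2 difference was 0.45 ± 0.22 (SE; limma P = 0.0582, adjusted P = 0.537; exact permutation P = 0.171). Without VEH replicate 3 it was 0.68, with an unadjusted limma P value of 0.00135, still under the 2-fold limit of a call. Myh3 ranged from 5.89 to 19.2 CPM in VEH and from 5.87 to 14.7 CPM in BAY, with a log2 difference of 0.05 ± 0.34 (SE; limma P = 0.881, adjusted P = 0.991; exact permutation P = 0.914). These groups overlapped fully.

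**Figure D1:**
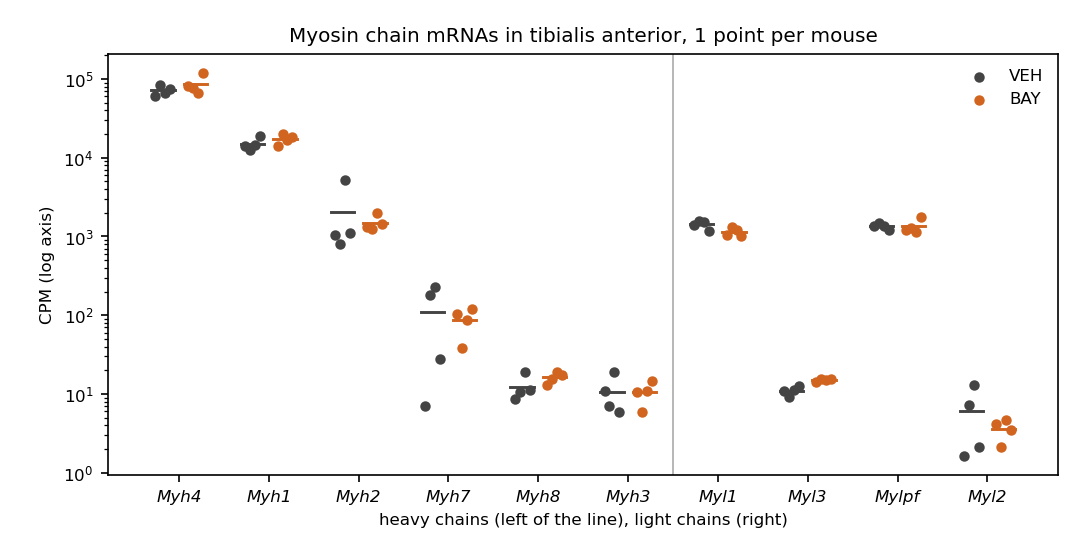
CPM (log axis) of the 6 heavy and 4 light chain genes in TA, with 1 point per mouse and a line at each group mean (n = 4). Myh4 leads at 60168 to 118580 CPM, VEH replicate 3 stands out at 5241 CPM for Myh2, and Myl3 is the member whose 4 BAY points all lie above the 4 VEH points.

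Of the fast light chains, Myl1 stood at 1386, 1558, 1548 and 1189 CPM in VEH and at 1050, 1324, 1197 and 1004 CPM in BAY. BAY values reached lower, and the groups overlapped, since VEH replicate 4 lay below BAY replicates 2 and 3. The log2 difference was -0.31 ± 0.19 (SE; limma P = 0.115, adjusted P = 0.609; exact permutation P = 0.0857). Mylpf stood at 1347, 1465, 1360 and 1226 CPM in VEH and at 1211, 1269, 1148 and 1754 CPM in BAY, with the highest value in BAY replicate 4, the mouse highest in Myh4. Its log2 difference was -0.02 ± 0.19 (SE; limma P = 0.912, adjusted P = 0.996; exact permutation P = 0.943).

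Myl3, the slow essential light chain, was the member with the smallest P value in TA. It stood at 11.1, 9.20, 11.1 and 12.6 CPM in VEH and at 14.2, 15.5, 14.96 and 15.3 CPM in BAY. Every BAY-treated mouse was above every VEH-treated mouse, and the BAY values lay close together. The means were 11.01 ± 1.41 and 14.98 ± 0.580 CPM (SD, n = 4), a log2 difference of 0.45 ± 0.15 (SE) with a 95% interval from 0.14 to 0.77 (limma P = 0.00809, adjusted P = 0.349; exact permutation P = 0.0286, the smallest that 4 against 4 allows). It was not called, since the change was under 2-fold and did not pass the correction. Over all genes, 5.73% had groups without overlap with BAY higher in 4.2% and lower in 1.53%. Pth1r, the receptor for parathyroid hormone, overlaps the Myl3 gene model on the other strand, and it was at 0.421 to 1.404 CPM in TA. Its part in the Myl3 value was not tested.

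Myl2, the slow regulatory light chain, stood at 1.63, 7.25, 13.2 and 2.15 CPM in VEH and at 4.13, 2.12, 4.64 and 3.51 CPM in BAY. All 4 BAY values lay inside the VEH range, and VEH replicate 3 was again the highest. The log2 difference was -0.31 ± 0.55 (SE; limma P = 0.584, adjusted P = 0.868; exact permutation P = 0.686), and it turned to 0.23 without VEH replicate 3.

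In all, limma called 0 of the 10 members in TA, where 2.43% of all 21011 genes were called, 1.33% with BAY higher and 1.09% with BAY lower. At an unadjusted P value under 0.05 there was 1 member, Myl3, with BAY higher, against 9.79% of all genes (6.71% with BAY higher and 3.07% with BAY lower). No gene passed an adjusted P value of 0.05. With voom on the recovered reads 0 members were called, and 3 had an unadjusted P value under 0.05, Myl3, Myh8 with BAY higher and Myl1 with BAY lower (0.0207, 0.0499 and 0.0160), as these 3 also did with median centring and with quantile normalization. Of all genes, 10.5%, 11.6% and 12% were under that limit in these fits. The median log2 difference of all genes was 0.06, and 6 of the 10 members had a difference above 0.

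The share of each heavy chain was taken per mouse as its CPM per kb of annotated exon over the sum of the 6 chains. Myh4 took 84.1%, 89.4%, 81.6% and 83.4% in VEH and 87.6%, 82.8%, 82.3% and 89.0% in BAY. Myh1 took 14.7%, 9.78%, 13.3% and 15.6% in VEH and 11.2%, 16.1%, 15.7% and 10.1% in BAY. In each mouse nearly all heavy chain signal was thus of the IIB and IIX kinds. The pair of mice with the highest Myh4 share, VEH replicate 2 and BAY replicate 4, had the lowest Myh1 share. Shares have a fixed sum, so a high Myh4 share leaves little for Myh1. In CPM, BAY replicate 4 was 3rd highest in Myh1, at 18140 CPM. Mean shares differed by 0.780 points for Myh4 (84.6% ± 3.36 in VEH, 85.4% ± 3.37 in BAY; SD, n = 4; exact permutation P = 0.857) and by -0.0622 points for Myh1 (13.4% ± 2.57 and 13.3% ± 3.06; exact permutation P = 1). Both differences were smaller than the spread between mice.

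Myh2 took 1.12%, 0.661%, 4.89% and 0.961% of the heavy chain signal in VEH and 1.105%, 1.04%, 1.90% and 0.824% in BAY. The mean was 1.91% ± 2.00 in VEH and 1.22% ± 0.473 in BAY (SD, n = 4; exact permutation P = 0.829), and the VEH mean was 0.914% ± 0.233 without replicate 3 (SD, n = 3). The IIA share was therefore higher in VEH with that mouse and lower without it. Myh7 took 0.00654%, 0.126%, 0.183% and 0.0208% in VEH and 0.0744%, 0.0280%, 0.0731% and 0.0602% in BAY (exact permutation P = 0.657). With these lengths the slow chain was below 0.2% of the heavy chain signal in every mouse. In VEH replicate 3 it was 0.264% with canonical transcript lengths, 0.270% with the longest transcript and 0.260% with no division by length. Myh8 and Myh3 took at most 0.0128% and 0.0235%.

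Among light chains per kb, the share of Myl3 in Myl1 plus Myl3 was 0.707%, 0.525%, 0.637% and 0.940% in VEH and 1.19%, 1.03%, 1.104% and 1.34% in BAY. All BAY-treated mice were above all VEH-treated mice. The difference was 0.465 points (0.702% ± 0.176 against 1.17% ± 0.132; SD, n = 4; exact permutation P = 0.0286, the smallest possible, and 0.229 after adjustment over the 8 shares tested). The share of Myl2 in Mylpf plus Myl2 was 0.0389%, 0.159%, 0.311% and 0.0563% in VEH and 0.110%, 0.0537%, 0.130% and 0.0642% in BAY (exact permutation P = 0.514). These groups overlapped, and whether Myl2 differed from Myl3 in this was not tested. The size of both differences moved with the length used. That of Myl2 was -0.0518 points here and -0.160 to -0.102 with other lengths or none. For Myl3 it was 0.519 to 0.648 points with those. Per kb, summed heavy chains over summed light chains stood at 6.67, 7.98, 7.35 and 9.37 in VEH. In BAY this ratio was 10.04, 9.005, 8.71 and 11.1. VEH replicate 4 lay inside the BAY range, and the other VEH mice lay below it. The difference between groups in this ratio, and its change with other lengths, were not tested.

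**Figure D2:**
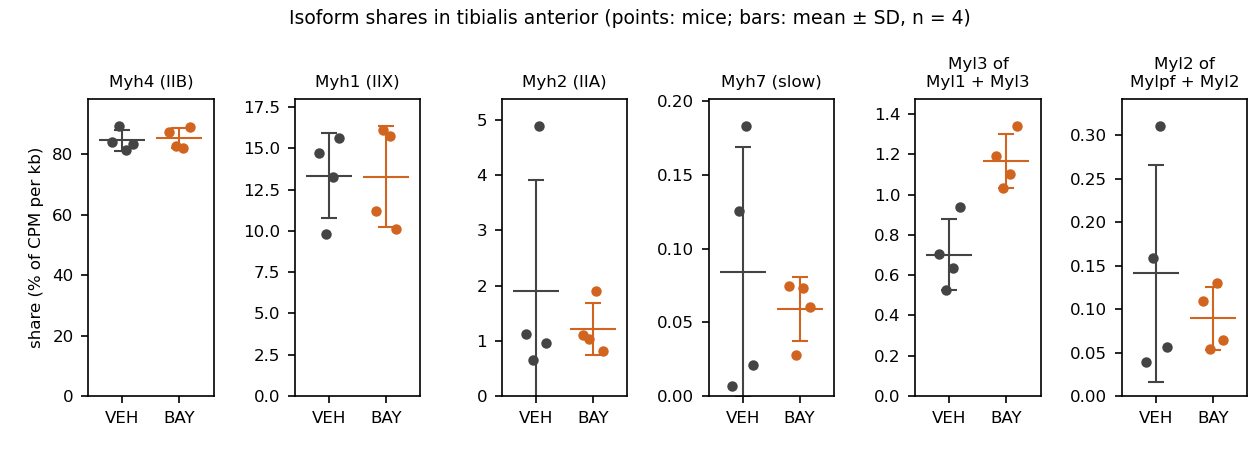
Isoform shares in TA as percent of CPM per kb, with 1 point per mouse and mean ± SD bars (n = 4; bars that reach below 0 are cut there). Shares of the 4 adult heavy chains overlap between VEH and BAY, Myh2 is raised by VEH replicate 3 at 4.89%, and the Myl3 share of the essential light chains is 0.525% to 0.940% in VEH and 1.03% to 1.34% in BAY.

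Myl2 ranked the mice much as Myh7 did. Both were highest in VEH replicate 3, then VEH replicate 2, and lowest in VEH replicate 1, with VEH replicate 4 and BAY replicate 2 next to the bottom. The slow troponins, chosen for naming after their values were seen, were also highest in VEH replicate 3. Tnnt1, the slow troponin T, was at 18.2 CPM in VEH replicate 3, 12.1 CPM in VEH replicate 2 and 2.44 CPM in VEH replicate 1, and Tnnc1, the slow and cardiac troponin C, was at 6.80, 6.55 and 0.233 CPM in those mice, the last under the floor. Myl3 did not follow, being higher in BAY replicate 2 (15.5 CPM) than in VEH replicate 3 (11.1 CPM). Other slow-fibre partners kept the order less well. Tnni1 was lowest in BAY replicate 2, Casq2 was at 16.3 CPM in VEH replicate 1 and 15.8 CPM in VEH replicate 2, and Csrp3, a muscle LIM protein, was at 2.65 CPM in VEH replicate 2, the lowest of VEH. In all of these VEH replicate 3 was the highest mouse. Fewer slow fibres and less of these mRNAs per fibre cannot be told apart in whole muscle.

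**Figure D3:**
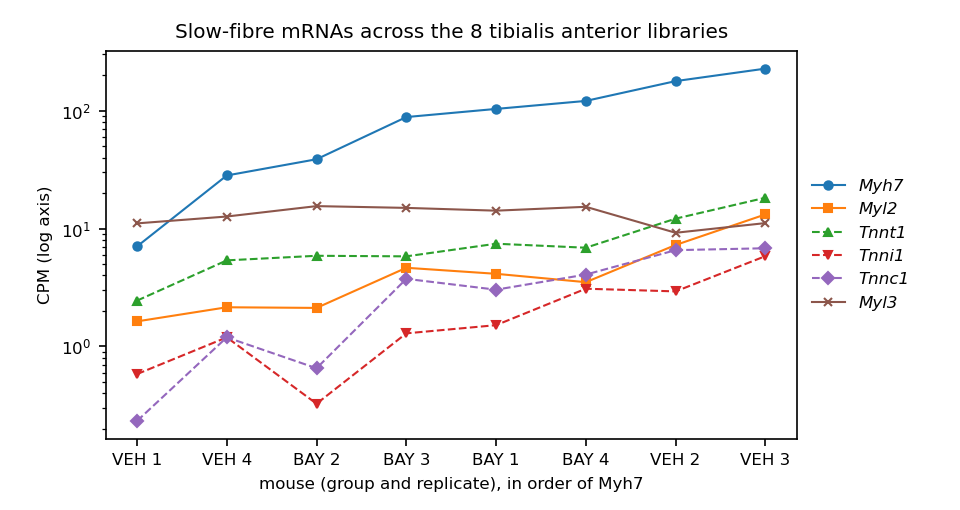
CPM (log axis) of the slow-fibre genes Myh7, Myl2, Myl3, Tnnt1, Tnni1 and Tnnc1 in the 8 TA libraries, ordered on the x axis by Myh7 from 7.05 to 227 CPM. Myl2 and the troponins are highest in VEH replicate 3 and do not rise at every step, Tnni1 being lowest in BAY replicate 2, while Myl3 stays between 9.20 and 15.5 CPM and is lowest in VEH replicate 2.

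The 5′ flanks show a feature that the 3 adult fast heavy chain genes have in common. All 10 members were matched in the RefSeq promoter table (GRCm38.p6), and the 250 bases before the start are printed for Myh4 (chr11:67237562-67237811, plus), Myh1 (chr11:67199852-67200101, plus), Myh2 (chr11:67170777-67171026, plus) and, as the slow gene, the downstream of 2 listed starts of Myh7 (chr14:54994550-54994799, minus). Capitals mark every run of at least 12 bases present in all 3 fast genes.

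Myh4: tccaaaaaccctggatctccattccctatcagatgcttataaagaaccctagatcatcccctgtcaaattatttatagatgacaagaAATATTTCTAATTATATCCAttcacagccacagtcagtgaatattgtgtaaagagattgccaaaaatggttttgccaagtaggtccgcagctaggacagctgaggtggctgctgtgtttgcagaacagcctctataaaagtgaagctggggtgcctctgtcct
Myh1: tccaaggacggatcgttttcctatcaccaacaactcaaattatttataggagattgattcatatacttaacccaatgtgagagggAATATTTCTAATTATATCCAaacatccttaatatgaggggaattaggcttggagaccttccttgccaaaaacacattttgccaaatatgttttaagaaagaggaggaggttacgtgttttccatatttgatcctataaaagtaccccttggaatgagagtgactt
Myh2: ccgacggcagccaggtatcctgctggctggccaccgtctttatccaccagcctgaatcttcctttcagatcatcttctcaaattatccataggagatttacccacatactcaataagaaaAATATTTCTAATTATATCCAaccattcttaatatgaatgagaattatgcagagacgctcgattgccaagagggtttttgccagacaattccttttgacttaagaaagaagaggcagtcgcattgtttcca
Myh7: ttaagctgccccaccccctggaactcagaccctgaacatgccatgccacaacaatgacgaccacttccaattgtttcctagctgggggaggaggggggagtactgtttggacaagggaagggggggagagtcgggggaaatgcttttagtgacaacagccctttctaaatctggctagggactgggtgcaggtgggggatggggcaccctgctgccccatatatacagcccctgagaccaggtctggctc

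There was 1 such run, of 20 bases, which began 163 bases before the start of Myh4, 165 before that of Myh1 and 130 before that of Myh2. Read on both strands, it was in 3 of the 32851 promoters of the table, those same 3, and its inner 14 bases were also in the Myh8 promoter. It was not in the Myh7 promoter. In TA the levels per kb of exon ran from 93.8 to 608 CPM for Myh2 and from 9079 to 17893 CPM for Myh4. The letters GCGTG, the core of the site that AhR binds, were in 28.2% of all promoters and in 2 of the 10 members' promoters, those of Myl1 and Myh8. An E-box (CANNTG) was in 8 of the 10 and in 66.2% of all. These matches are descriptions of the letters only.

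The genes that work with the chains were read as lists. None of the 14 thick filament partners was called (2.43% of all genes were). At an unadjusted P value under 0.05, Igfn1, a sarcomere protein, had a log2 difference of 0.76 (limma adjusted P = 0.403) and Mybph, a myosin-binding protein of the thick filament, one of -0.50 (limma adjusted P = 0.409). Mylk2, the kinase of the fast regulatory light chain, was at 695 ± 90.7 CPM in VEH and 849 ± 105 CPM in BAY (SD, n = 4; limma adjusted P = 0.583). List medians were 0.15 for the thick filament, 0.12 for 11 fast-fibre partners and -0.14 for 12 slow-fibre partners, beside 0.06 for all genes.

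None of the 11 fast-fibre or 12 slow-fibre partners was called, beside 2.43% of all genes. None had an unadjusted limma P value under 0.05, beside 9.79% of all genes, and lists this short would hold few at that share. Pvalb, the calcium buffer of fast fibres, was at 1826 ± 213 CPM in VEH and 1612 ± 118 CPM in BAY (SD, n = 4; limma adjusted P = 0.782), Mybpc2, the fast myosin-binding protein C, at 3230 ± 442 and 3938 ± 1128 CPM, and Pfkm, the muscle phosphofructokinase, at 1380 ± 167 and 1595 ± 147 CPM. Among slow partners Casq2, the slow and cardiac calsequestrin, was at 17.4 ± 4.89 and 13.9 ± 2.30 CPM and Tnni1, the slow troponin I, at 2.63 ± 2.35 and 1.55 ± 1.14 CPM. Fhl2 was under 1 CPM in all mice.

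Of 17 known regulators of fibre type, 0 were called, beside 2.43% of all genes, and 2 had an unadjusted P value under 0.05, near the 9.79% of all genes that did. Mafa, a large Maf factor known to drive Myh4, was at 40.2, 70.4, 54.2 and 35.0 CPM in VEH and at 70.04, 65.4, 74.6 and 81.8 CPM in BAY (log2 difference 0.60, limma adjusted P = 0.340). Nfatc1, the calcineurin target known to favour slow and oxidative myosins, was at 54.5 ± 10.2 CPM in VEH and 70.6 ± 5.96 CPM in BAY (SD, n = 4; log2 difference 0.39, limma adjusted P = 0.404). VEH replicate 2 overlapped the BAY mice in both genes. Mef2d, a factor of muscle promoters, had a log2 difference of 0.23 (limma adjusted P = 0.564).

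Myosin folding factors showed 0 called of 6, beside 2.43% of all genes, with Hspa8, Hsp90aa1 and Cryab at log2 differences of -0.30, -0.37 and -0.26. All 3 were highest in VEH replicate 3, at 394, 41.8 and 271 CPM, and the list summed to 1113 CPM there against 723 to 860 CPM in the other 7 mice. Of 10 regeneration genes 0 were called. Myf5, a satellite cell factor, was at 0.303 ± 0.154 CPM in VEH and 0.800 ± 0.513 CPM in BAY (SD, n = 4), near the floor, and Myf6 was at 34.9 ± 4.04 and 38.4 ± 3.39 CPM.

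Other myosin II genes, those of smooth muscle, non-muscle cells and heart, had 14 of 15 in the table and 0 called, beside 2.43% of all genes. At an unadjusted P value under 0.05 there were 3 of the 14, with BAY higher in each, beside 6.71% of all genes with BAY higher at that limit, and 2 of the 14 had groups without overlap, beside 5.73% of all genes. Myh9, a non-muscle heavy chain, was at 115, 152, 141 and 148 CPM in VEH and at 181, 165, 203 and 259 CPM in BAY, without overlap (log2 difference 0.52 ± 0.15 SE, limma adjusted P = 0.319). Myl9, the regulatory light chain of smooth muscle and non-muscle myosin, was at 6.35 ± 0.549 CPM in VEH and 10.1 ± 2.28 CPM in BAY (SD, n = 4), also without overlap (limma adjusted P = 0.319). Myh14, a further non-muscle heavy chain, had a log2 difference of 0.44 (limma adjusted P = 0.4995). Among smooth muscle markers Smtn had a log2 difference of 0.52 (limma adjusted P = 0.275), Myh11 one of 0.30 and the list a median of 0.30. Endothelial markers went both ways, with Tie1 at 0.45, Cdh5 at 0.31 and Kdr at -0.24, and a median of 0.04. The 5 smooth muscle markers summed to 108 to 153 CPM in VEH and to 131 to 181 CPM in BAY, and the 5 endothelial markers to 174 to 201 and 182 to 227 CPM. Their part in the Myh9 and Myl9 values was not tested.

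Muscle fibre markers were present in full in TA, 12 of 12 in the table and none at 0, summing to 53501 to 64566 CPM in VEH and 57182 to 77108 CPM in BAY, with 0 called. Acta1, the skeletal actin, was at 9310 to 13130 CPM in VEH and 10225 to 12162 CPM in BAY, and Ckm, the muscle creatine kinase, at 4383 to 5289 and 4627 to 5668 CPM. In marker lists of other cell types 1 gene was called, beside 2.43% of all genes, namely Plin1 of fat cells, with a log2 difference of -2.13 (limma adjusted P = 0.480). It was at 37.9 CPM in VEH replicate 3 and at 0.275 to 2.33 CPM in the other 7 mice. None was called of the 5 measured osteoblast, 5 blood, 6 tendon, 5 endothelial, 5 smooth muscle and 5 Schwann cell markers, and tendon markers had a median log2 difference of -0.42, with Scx at 0.63 (limma adjusted P = 0.409), Fmod at -0.49 and Mkx, under 1 CPM in all mice, at -2.72.

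The genes whose log2 values ran closest to a chain over the 8 TA libraries were sought among 5550 genes that averaged 10 CPM or more. For Myh4 these were Mybpc2 (Pearson r = 0.99), Cwc22 (r = 0.97) and Ubb (r = 0.97). Mybpc2 is itself a fast thick filament protein and went from 2801 CPM to 5580 CPM, the highest in BAY replicate 4 as for Myh4. For Myh2 they were Rhot1, Slc27a1 and Lmod2 with r from 0.96 to 0.98, falling to 0.91, 0.86 and 0.82 over the 7 libraries without VEH replicate 3. For Myh7 they were Rgma (r = 0.99), Trappc5 (r = 0.98) and Rnf169 (r = 0.97). Rgma kept the same order of mice as Myh7 over a narrow span, 24.1 to 41.2 CPM. All points share library depth and composition, and the highest of so many values are high by selection.

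In cortical bone the libraries stood far apart before any comparison. The 12 osteoblast and osteocyte markers summed to 7236, 1482, 30270 and 22416 CPM in VEH replicates 1 to 4 and to 1986, 1711, 22219 and 2261 CPM in BAY replicates 1 to 4. The 12 muscle fibre markers summed to 4861, 246, 65.3 and 57.5 CPM in VEH and to 18248, 19693, 749 and 119 CPM in BAY, and 1 of them was at 0 in VEH replicate 4 and 3 in BAY replicate 4. Muscle marker RNA was thus highest in BAY replicates 1 and 2, then VEH replicate 1, then BAY replicate 3, and markers of bone-forming cells were highest in VEH replicates 3 and 4 and BAY replicate 3. Genes of olfactory receptors took 0.0513% of CPM in VEH replicate 1, 0.544% to 1.20% in VEH replicate 3 and BAY replicates 1 to 3, and 2.24% to 3.52% in VEH replicates 2 and 4 and BAY replicate 4. In TA they took 0.00236% to 0.00330%.

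Acta1, the skeletal actin, served as the measure of muscle fibre transcripts in bone. It was at 704, 29.5, 5.67 and 1.46 CPM in VEH replicates 1 to 4 and at 2849, 3172, 107 and 3.22 CPM in BAY replicates 1 to 4. BAY replicates 1 and 2 thereby held 26.3% and 29.3% of the mean of the VEH-treated TA, VEH replicate 1 held 6.51%, BAY replicate 3 held 0.993%, and the other 4 held at most 0.272%. The tables were normalized separately, so these percentages are side-by-side values.

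Myh4 was highest in the 4 libraries that were highest in Acta1, at 1967, 30.4, 31.2 and 5.82 CPM in VEH and 12905, 14461, 500 and 15.8 CPM in BAY. Myh1 stood at 3131, 60.8, 13.6 and 7.28 CPM in VEH and at 9663, 10524, 346 and 23.9 CPM in BAY, and Myh2 at 1762, 29.1, 11.5 and 15.3 CPM in VEH and at 2439, 2281, 93.1 and 18.8 CPM in BAY. In all 3 fast heavy chains the groups overlapped, since VEH replicate 1 lay above BAY replicates 3 and 4. The fitted log2 differences were 4.26 ± 2.06 for Myh4 (SE; limma P = 0.0594, exact permutation P = 0.229), 3.86 ± 2.03 for Myh1 (limma P = 0.0792, exact permutation P = 0.2) and 2.52 ± 1.72 for Myh2 (limma P = 0.167, exact permutation P = 0.257), each with an adjusted P of 0.887, beside a median of 0.84 over all bone genes. With 1 library left out they ran from 3.02 to 6.30 for Myh4, from 2.71 to 5.72 for Myh1 and from 1.53 to 4.19 for Myh2. Acta1 itself had a log2 difference of 3.54 (exact permutation P = 0.286).

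The fast light chains showed the same libraries. Mylpf was at 75.4, 3.68, 0.354 and 1.46 CPM in VEH and at 409, 467, 14.3 and 1.07 CPM in BAY, where the values at and under 1.46 CPM are at most 2 reads. Its log2 difference was 3.58 ± 1.93 (SE; limma P = 0.0870, adjusted P = 0.887; exact permutation P = 0.229), and 2.41 to 5.34 with 1 library left out. Myl1 was at 63.4, 11.2, 1.77 and 4.37 CPM in VEH and at 311, 364, 21.9 and 18.3 CPM in BAY. Every BAY library was above 3 of the VEH libraries, and VEH replicate 1 lay above 2 of the BAY libraries. Its log2 difference was 3.25 ± 1.22 (SE; limma P = 0.0193, adjusted P = 0.887; exact permutation P = 0.114), and 2.49 to 4.21 with 1 library left out.

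Myl1 was thus the only member called in bone, 1 of 10, where 0.64% of all 38933 genes were called, 0.545% with BAY higher and 0.095% with BAY lower. The groups overlapped for all 10 members, and over all genes 0.406% had groups without overlap (0.354% with BAY higher and 0.0514% with BAY lower). The call was lost without BAY replicate 1, BAY replicate 2 or VEH replicate 3, with unadjusted limma P values of 0.0658, 0.0704 and 0.0671. It was also lost with median centring (log2 difference 2.40), with quantile normalization (3.38), where Myl3 at -2.04 was called in its place, and without a variance trend. With the replicate number as a block, with log2(CPM + 1), without BAY replicate 4 or without VEH replicate 1, 5 members were called in each case, Myh1, Myh2, Myh4, Myl1 and Mylpf, where 0.783%, 0.501%, 0.48% and 0.673% of all genes were called. Of the 12 muscle fibre markers 2 were called, Casq1, the fast calsequestrin (log2 difference 3.42), and Eno3, the muscle enolase (3.36), with an adjusted P of 0.887 for both. Of the 11 fast-fibre partners 2 were called, Casq1 again and Myoz1, a protein of the fast Z-disc (3.46), and the other 13 lists had 0 called. Of the members, Myh4, Myh1, Myh2, Myl1, Mylpf and Myl2 were highest in BAY replicates 1 and 2 and VEH replicate 1, as the muscle markers were, whereas Myh3, Myh7, Myh8 and Myl3 were not. Muscle left on the shafts and a change within bone cells cannot be told apart from these sums.

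**Figure D4:**
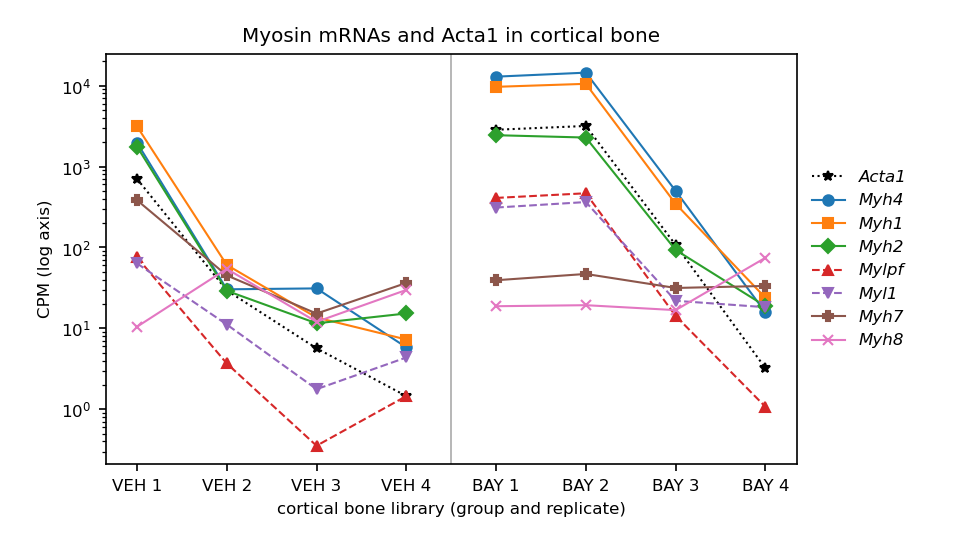
CPM (log axis) of 7 myosin chain genes and of Acta1 in the 8 cortical bone libraries; lines only join the libraries of a group. The fast chains are highest in the 3 libraries where Acta1 is highest, BAY replicates 1 and 2 and VEH replicate 1 at 704 to 3172 CPM, and do not keep its order in the low libraries, while Myh7 and Myh8 stay between 10.5 and 384 CPM.

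Scaled to actin, the heavy chains of the 4 bone libraries with over 900 heavy chain reads were near those of TA. Summed heavy chain CPM over Acta1 CPM was 10.3 in VEH replicate 1 and 8.81, 8.62 and 9.24 in BAY replicates 1 to 3, beside 6.66 to 11.4 in the 8 TA libraries. Mylpf over Acta1 was 0.107, 0.144, 0.147 and 0.133 in those libraries and 0.104 to 0.145 in TA. Both ratios lay within or next to the TA range.

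The mix of heavy chains differed from that of TA. Per kb, Myh4 took 58.6%, 60.01% and 57.9% in BAY replicates 1 to 3 and 33.2% in VEH replicate 1, below the 81.6% to 89.4% of all TA libraries. Myh1 took 32.6%, 32.5%, 29.8% and 39.3% in the same order, and Myh2 took 8.52%, 7.28%, 8.29% and 22.9%. The IIX and IIA shares were thus higher and the IIB share lower in these 4 libraries than in the mean of either TA group, a difference between tissues that was not tested. VEH replicate 1 was the library most shifted in this way, and with 1 VEH library of this kind no comparison between the groups was possible. These libraries had 50563, 56119, 66115 and 1949 heavy chain reads (VEH replicate 1, BAY replicates 1 to 3). The other 4 had 133 to 251, and their shares are not read. Their heavy chains over Acta1 were 7.84, 14.9 and 66.5 in VEH replicates 2 to 4 and 53.9 in BAY replicate 4, mostly outside the TA range, with 2 to 32 reads on Acta1.

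Myh7 was at 384, 45.2, 15.2 and 36.4 CPM in VEH and at 39.3, 47.0, 31.6 and 33.5 CPM in BAY. VEH replicate 1 stood alone at 348% of the TA mean of VEH, and Myh7 took 4.29% of its heavy chain signal against 0.118%, 0.130% and 2.42% in BAY replicates 1 to 3. Of the slow troponins, Tnnt1 and Tnnc1 were also highest in that library, at 24.6 and 14.96 CPM against at most 8.05 and 2.48 CPM in the other 7, whereas Tnni1 was at 7.91 CPM there and highest in BAY replicate 4 at 22.6 CPM. Casq2 and Myoz2 were not highest there either, at 4.89 and 4.60 CPM. Tnnt1, Tnnc1 and Myoz2 were chosen for naming after their values were seen. In those 7 Myh7 did not follow Acta1, with 36.4 CPM in VEH replicate 4 where Acta1 had 2 reads. The log2 difference was -0.57 ± 0.83 (SE; limma P = 0.502, adjusted P = 0.887; exact permutation P = 0.714), turning to 0.35 without VEH replicate 1.

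Myh8 was at 10.5, 54.3, 12.05 and 29.8 CPM in VEH and at 18.8, 19.3, 16.8 and 74.5 CPM in BAY. It was highest in BAY replicate 4, VEH replicate 2 and VEH replicate 4, the 3 shallowest libraries and those with the highest shares of olfactory receptor reads, at 3.52%, 2.92% and 2.24%. The part of that background in the Myh8 value was not tested. Its log2 difference was 0.29 ± 0.75 (SE; limma P = 0.706, adjusted P = 0.930; exact permutation P = 0.686). Myh3 ranged from 1.06 to 19.3 CPM in VEH and from 4.07 to 21.5 CPM in BAY (log2 difference 0.88 ± 1.13 SE, limma P = 0.451, adjusted P = 0.887; exact permutation P = 0.457). The Myh3 difference was 0.166 to 1.56 with 1 library left out and 0.032 with median centring.

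The slow light chains were scarce in bone. Myl3 was at 8.63, 11.97, 2.13 and 8.01 CPM in VEH and at 4.92, 2.90, 2.55 and 5.37 CPM in BAY, from 5 to 60 reads, with a log2 difference of -0.79 ± 1.05 (SE; limma P = 0.465, adjusted P = 0.887; exact permutation P = 0.229). Its direction was opposite to that in TA, and the difference between tissues was not tested. In bone the Myl3 difference was -1.33 to -0.498 with 1 library left out and -1.64 with median centring. Pth1r, which overlaps Myl3 on the other strand and is a gene of bone-forming cells, was at 10.7 to 96.0 CPM in bone. Myl2 was at 10.6, 0.921, 0 and 0.728 CPM in VEH and at 8.05, 5.38, 0.509 and 2.15 CPM in BAY, with at most 2 reads in 5 libraries, so no fold is given. Ccdc63, which overlaps Myl2 on the other strand and was named after its values were seen, was at 0.863 to 52.5 CPM in bone, and its part in the Myl2 values was not tested.

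**Figure D5:**
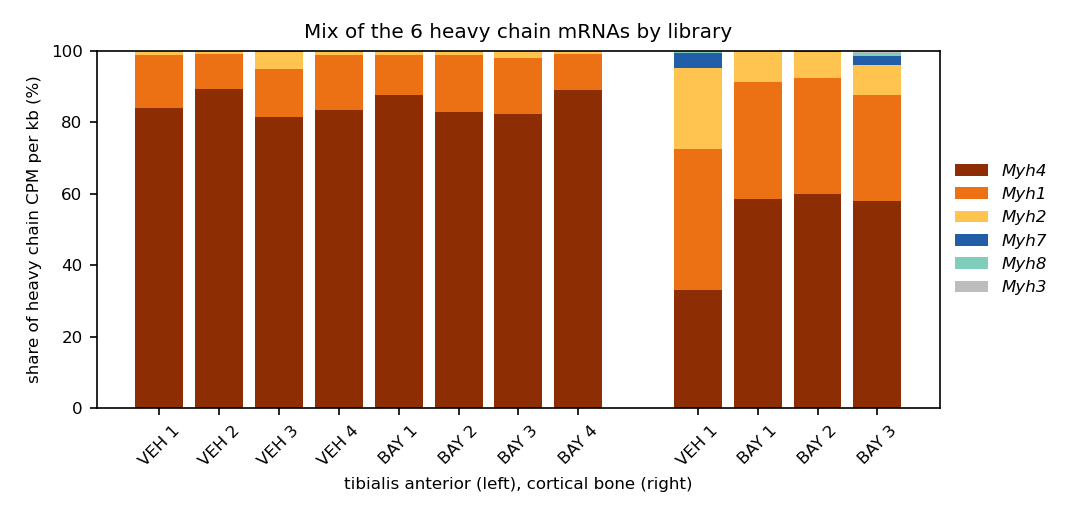
Share of each of the 6 heavy chains in their summed CPM per kb, as stacked bars from 0 to 100%, for the 8 TA libraries (left) and the 4 bone libraries with over 900 heavy chain reads (right). Myh4 fills 81.6% to 89.4% of each TA bar, 57.9% to 60.01% in bone BAY replicates 1 to 3 and 33.2% in bone VEH replicate 1, where Myh2 reaches 22.9%.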

How the data were processed

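Bulk RNA-seq of TA and cortical bone was analysed in 16 libraries. The authors aligned reads to mm39 with STAR (version 2.7.8a), counted them on Ensembl gene models in Partek by an expectation-maximization step, which can split a read among genes, and deposited log2 CPM plus an offset, found here as 0.0004 in TA and 0.0001 in bone. Log2 and offset were undone. Between 81.5% and 88.6% of values up to 50 reads were whole multiples (within 0.02) of a step taken as 1 read. The strand setting of counting is not given in the sources used here.

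BAY was compared with VEH by limma (version 3.58.1, R version 4.3.3) with a trended variance prior, fitted to every gene's deposited log2 value, two-sided. Shares used exon-union lengths from GENCODE M39 and a two-sided exact permutation over 8 mice (scipy version 1.17.1). The fit and the read step were tested on simulated data.

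Members and the 15 gene lists were chosen with earlier results of these data known. Named genes are the members, Acta1, Ckm, listed genes called in TA or else up to 3 per list with the smallest P, and the 3 genes most alike to Myh4, Myh2 and Myh7. Tnnt1, Tnnc1, Csrp3, Myoz2, Pth1r, Myhas, Ccdc63 and the genes called in bone (Casq1, Eno3 and Myoz1) fall outside this rule and were chosen after their values were seen. Alternatives were other pseudocounts, filters, centring, quantile normalization, no trend, voom on recovered reads, other lengths, the replicate block and each mouse left out; canonical transcript lengths and the bone share lengths were added after seeing the data.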

Additional observations from a re-analysis of the deposited data

Results flagged for a closer look

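A value was noted where the highest or lowest library of a group of 4 stood far from its neighbours (Dixon's 95% limit). Of 56 groups tested, 11 met it. By chance 1 in 20 groups would meet it if groups were independent and normally distributed. These groups share libraries, and some members entered both as CPM and as share, so the 11 cannot be set against that rate.

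In TA, 3 of these were VEH replicate 3: Myh2 at 5241 CPM, its share at 4.892% of the heavy chain signal, and the Myh8 share at 0.01252%. The same library had the highest summed CPM of adipocyte markers (328) and tendon markers (131).

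In bone, 7 were VEH replicate 1, the VEH library with the highest muscle markers (Acta1 at 704 CPM): Myh1 at 3131 CPM, Myh2 at 1762 CPM, Myh4 at 1967 CPM, Myh7 at 383.6 CPM, Myl1 at 63.44 CPM, Myl2 at 10.64 CPM and Mylpf at 75.38 CPM. The remaining 1 was Myh8 at 74.52 CPM in BAY replicate 4, where Acta1 was at 3.22 CPM and olfactory receptor genes took 3.52% of CPM. The part of muscle marker RNA and of that background in these values was not tested.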

How the results depend on the processing

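In TA, 0 members were called under all 16 alternatives run. The count of all genes called moved from 510 to 52 with log2(CPM + 1) and to 193 with genes of a mean of at least 1 CPM, and was 448 to 567 with 1 mouse left out. Log2 differences of members kept their direction in 148 of 160 runs. It turned for Myh3 to -0.000376 with median centring. With 1 mouse left out it turned in 11 runs, the ranges being -0.185 to 0.382 for Myh3, -0.156 to 0.0477 for Mylpf, -0.320 to 0.579 for Myh2, -0.370 to 1.30 for Myh7 and -0.771 to 0.234 for Myl2. The difference in share ran with a mouse left out from -1.25 to 0.992 points for Myh1, -1.11 to 0.303 for Myh2, -0.00470 to 0.000922 for Myh3, -0.406 to 2.37 for Myh4, -0.0509 to 0.00796 for Myh7 and -0.0859 to 0.00464 for Myl2; on the log2 scale that of Myh7 was 0.389. The Myl3 share difference stayed at 0.405 to 0.544 points, where 3 against 4 mice cannot give a P value under 0.0571. With the replicate number as a block it was 0.465 points (exact sign-flip P = 0.125, the smallest possible), and 0 TA members were called. Same-numbered mice had deviations from the group means that correlated at -0.103 to 0.035 in TA and -0.0842 to 0.486 in bone, so the numbers were not taken to pair the mice, and not every library correlated best with its own number.

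In bone, 249 genes were called, against 82 with a mean of at least 1 CPM, 443 with median centring, 705 with quantile normalization, 408 without a trend, 1433 with voom on recovered reads and 115 to 1116 with 1 mouse left out (1116 without VEH replicate 2). Members called were 5 with log2(CPM + 1), 4 with log2(CPM + 0.1), 0 with median centring, 0 without a trend, 5 with the replicate block and 0 to 5 with 1 mouse left out. Of all bone genes, 0.501%, 0.519%, 1.14%, 1.05% and 0.783% were called in these settings in the same order. With 1 mouse left out that share was 0.295% to 2.87%. Bone Myh8 turned to -0.562 with median centring and to -0.0618 with quantile normalization. With 1 mouse left out bone Myh8 ran from -0.219 to 0.739 and bone Myh7 from -1.20 to 0.354. The cause of these shifts was not tested. The Myh4 shares in bone of the 4 libraries with over 900 heavy chain reads kept VEH replicate 1 lowest under all 3 other lengths. At the depth of bone BAY replicate 4, 3 reads were worth 3.22 CPM.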
